A study of Mus musculus with 2 samples.

Results

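Transcripts of the proteasome, the multi-subunit protease that degrades ubiquitin-tagged proteins, were followed in AML12 cells that stably expressed the long noncoding RNA H19. The subunits were taken by symbol: Psma to Psmg followed by a number and at most 1 letter, leaving out the immunoproteasome genes Psmb8, Psmb9 and Psmb10. This gave 45 genes of the 21145 in the deposited table, and 43 of them had a mean of at least 1 FPKM over both libraries, called measured below, as had 11674 genes in all. FPKM counts fragments per kilobase of transcript, relative to all mapped fragments of the library.

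AML12 is a nontumorigenic mouse hepatocyte line, labelled CD1/MT42, and is known to derive from mice that carry a transforming growth factor alpha transgene. Both groups were the same line at passages 14 to 16. They were grown with serum, insulin, transferrin, selenium and dexamethasone, infected with a lentivirus and kept under puromycin. The virus of the first group was the control and that of the second carried H19. There was 1 library per group, so differences have no error and no test, and compare 2 libraries only. The labels do not say whether a line was 1 clone or a pool. In bulk RNA, fewer expressing cells and less RNA per cell cannot be told apart.

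Wherever 2 FPKM values are given together, the control library comes first. H19 itself was listed at 0 and at 4.72 FPKM. Of the 9 hepatocyte markers 6 were measured, and 5 of these were lower with H19, where 41.1% of all measured genes were lower. The higher one was Apoe, at 1.51 and 4.06 FPKM (log2 difference 1.01). Serpina1a was at 2.12 and 0.192 FPKM (-1.39). The keratin Krt8 was at 909 and 658 FPKM, Krt18 at 743 and 609 FPKM, transferrin (Trf) at 182 and 125 FPKM and Hnf4a at 74.4 and 44.4 FPKM. Albumin (Alb), at 0.99 and 0.178 FPKM, Apoa1, at 0.0382 and 0.116 FPKM, and Ttr, at 0.785 and 0.29 FPKM, were below 1 FPKM in both libraries. Of the fibroblast or stellate, macrophage or leukocyte and endothelial markers, only Des, Cd68 and Lyz2 were measured, each lower with H19 and none above 3.43 FPKM. Those lists summed to 3.83 and 1.26, 5.15 and 1.99, and 0.469 and 0.314 FPKM. Their part in the results below was not tested. Depth per library is unknown, and 19595 and 19063 genes were above 0.

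The proteasome has a barrel-shaped core, the 20S particle, with outer rings of alpha subunits (Psma) that gate entry and inner rings of beta subunits (Psmb) that hold the protease sites. The 19S particle caps the barrel: its base carries a ring of ATPases (Psmc) that unfold and feed substrates, and its lid (most Psmd) carries the enzyme that removes ubiquitin. Other caps, the activators (Psme), open the barrel without ubiquitin recognition, and dedicated chaperones (Psmg and a few Psmd) guide assembly. In most tissues, liver included, standard subunits are made together, in part under the transcription factor Nfe2l1, whereas the activator pair Psme1 and Psme2 and the immunoproteasome subunits are known to be induced by interferon.

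Core, base ATPase and lid transcripts were slightly higher in the H19 library, and the activator pair was lower. The difference is given as log2(FPKM + 1), H19 library minus control, and folds are on that scale. Of the 43 measured subunits 35 were higher in the H19 library (81.4%) and 8 lower, where 58.9% of all measured genes were higher and 41.1% lower. Among the 4314 genes with a mean of at least 20 FPKM, 63.2% were higher. The median difference of the subunits was 0.27, beside 0.08 over all measured genes. Most subunits differed by little: 14 of 43 (32.6%) were higher by at least 0.32 on the log2 scale, beside a background of 25.6%, and 3 (6.98%) were lower by at least as much, beside 15.4%. At least 1.5-fold higher were 2, beside 8.99% of all measured genes, and at least 1.5-fold lower were 3, beside 6.21%. The middle 50% of the subunits spanned 0.21 on the log2 scale, from 0.15 to 0.36, against 0.50 for all measured genes.

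**Figure D1:**
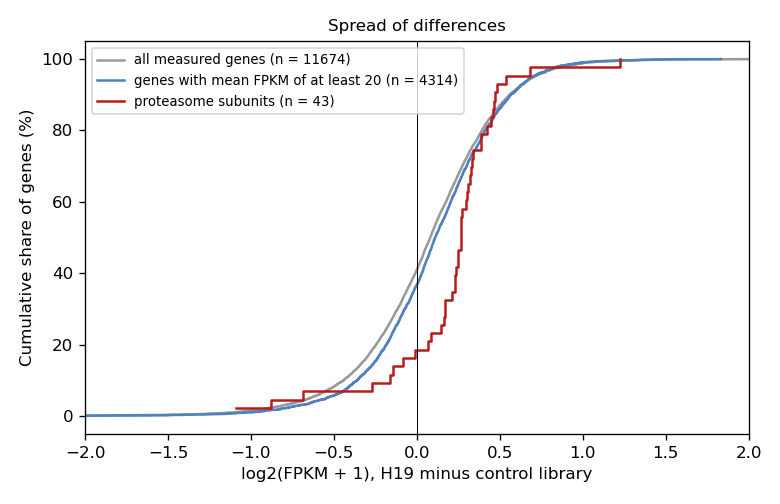
Cumulative share of genes (y axis, percent) by the log2(FPKM + 1) difference, H19 minus control library (x axis), for all 11674 measured genes, the 4314 genes with a mean of at least 20 FPKM and the 43 measured proteasome subunits. The curve of the subunits is steep between 0.15 and 0.36 and lies to the right of both others over most of that range, with 8 subunits below 0.

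Promoter windows of 2 pairs of subunits are shown. The activator pair Psme1 and Psme2 was lower in the H19 library. The protease subunits Psmb5 and Psmb6 were higher, as were 12 of the 14 measured core subunits. Psmb5 and Psmb6 were chosen after the motif search and are not typical of the core, as theirs were the only 2 of 12 core windows with the antioxidant element described next. Motif and direction are thus paired here by selection. Each window runs from 250 bases before to 50 bases after a RefSeq gene start (GRCm38.p6). Capitals mark TGACNNNGC, the core of the antioxidant response element that Nfe2l1 and Nfe2l2 bind, and the core of the interferon-stimulated response element (GAAA, any 2 bases, GAAA), on either strand. The windows are chr14:55578244-55578543 on the plus strand for Psme1, chr14:55591052-55591351 on the minus strand for Psme2, chr14:54617946-54618245 on the minus strand for Psmb5 and chr11:70525107-70525406 on the plus strand for Psmb6.
Psme1: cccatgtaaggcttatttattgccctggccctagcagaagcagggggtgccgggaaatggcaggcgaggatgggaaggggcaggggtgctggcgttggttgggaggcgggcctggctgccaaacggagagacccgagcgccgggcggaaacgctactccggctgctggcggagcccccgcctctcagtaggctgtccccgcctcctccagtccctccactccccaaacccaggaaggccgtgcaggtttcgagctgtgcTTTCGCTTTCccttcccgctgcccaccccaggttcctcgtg
Psme2: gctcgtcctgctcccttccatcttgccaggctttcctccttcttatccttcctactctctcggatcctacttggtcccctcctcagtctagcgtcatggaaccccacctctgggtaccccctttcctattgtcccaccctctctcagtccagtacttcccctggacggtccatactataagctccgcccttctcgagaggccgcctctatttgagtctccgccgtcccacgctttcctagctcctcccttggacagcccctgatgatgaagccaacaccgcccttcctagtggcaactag
Psmb5: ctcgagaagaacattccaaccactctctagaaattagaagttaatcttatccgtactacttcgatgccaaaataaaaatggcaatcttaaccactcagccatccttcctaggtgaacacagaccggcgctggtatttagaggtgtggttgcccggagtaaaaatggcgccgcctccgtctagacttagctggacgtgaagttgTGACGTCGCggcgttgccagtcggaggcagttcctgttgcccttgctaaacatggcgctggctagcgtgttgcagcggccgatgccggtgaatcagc
Psmb6: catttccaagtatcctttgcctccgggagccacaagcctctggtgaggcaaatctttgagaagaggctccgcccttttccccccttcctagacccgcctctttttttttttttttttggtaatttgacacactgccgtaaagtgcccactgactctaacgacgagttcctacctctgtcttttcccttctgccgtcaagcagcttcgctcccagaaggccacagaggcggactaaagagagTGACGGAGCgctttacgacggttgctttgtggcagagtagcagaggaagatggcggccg
Psme1 held the interferon element core on the reverse strand, beginning 9 bases after the start, and Psme2 held neither motif in its window. Psmb5 and Psmb6 each held the antioxidant element core on the forward strand, beginning 47 and 9 bases before the start. The window of Psmc5, with the largest positive difference of the base, held none of the motifs searched.

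RefSeq entries were found for 37 of the 45 subunits, with 40 windows; Psma8, Psmb1, Psmb2, Psmb7, Psmc3, Psmd3, Psmd7 and Psmg2 had no entry. The antioxidant element core stood in 6 of the 40 windows (15.0%), beside 12.4% of all 32851 windows and 14.6% of those of measured genes. The interferon element core stood in 5 windows (12.5%), beside 3.44% and 2.92%, and only 1 of the 5, that of Psme1, belonged to an activator. CCAAT, the box bound by NF-Y, stood in 12 (30.0%), beside 37.4% and 38.4%, and in 6 of the 12 core windows. CCGGAAG, a core of ETS factor sites, stood in 15 windows (37.5%), beside 8.86% and 18.8%. It was unevenly placed: 6 of 9 base windows and 4 of 6 lid windows held it, but 1 of 12 core windows. Each motif was sought on both strands, none of the matches in the windows shown overlap, and a match describes the letters alone.

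The alpha ring was nearly level or higher in the H19 library. Psma3 was at 81.5 and 103 FPKM (log2 difference 0.33), Psma6 at 99.7 and 124 FPKM (0.31), and Psma2 at 127 and 151 FPKM (0.25). Psma5 was the only lower member at 67.8 and 67.1 FPKM (-0.01), and Psma7, the most abundant alpha subunit, was at 158 and 166 FPKM (0.07). Psma4 was at 146 and 162 FPKM (0.15) and Psma1 at 100.5 and 118 FPKM (0.23). The 7 members thus covered a range from -0.01 to 0.33 with a median of 0.23, and only Psma3 passed 0.32. Psma8, which replaces Psma7 in the testis, was listed at 0.0267 and 0 FPKM and was not measured.

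The beta ring was uniform apart from 1 member, with a middle 50% that spanned 0.05. All 3 subunits with a protease site were higher: Psmb5, which carries the chymotrypsin-like site, was at 57.4 and 68.5 FPKM (0.25), Psmb6, with the caspase-like site, at 130.0 and 161 FPKM (0.30), and Psmb7, with the trypsin-like site, at 116 and 140 FPKM (0.27). These 3 differences ran from 0.25 to 0.30. Of the beta subunits without a protease site, Psmb3 was at 197 and 247 FPKM (0.32), the highest level of any subunit in both libraries. Psmb4 was at 121 and 146 FPKM (0.27) and Psmb1 at 148 and 174 FPKM (0.23). Psmb2 alone was lower, at 58.2 and 54.9 FPKM (-0.08). The median of the 7 was 0.27, and Psmb3 was the only one past 0.32. Pseudogenes named as such in their deposited description, Psmb7-ps2 at 0.113 and 0.207 FPKM and Psmb6-ps at 0 and 0.135 FPKM, can share reads with their parent genes. Pseudogenes described otherwise were not sought. Over the 14 measured core subunits the median was 0.25, with 12 higher and 2 lower.

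The interferon-induced counterparts of the protease subunits were scarce. Psmb10, which takes the place of Psmb7 in the immunoproteasome, was at 7.65 and 4.75 FPKM (-0.59). Psmb9 was at 0.129 and 0.0969 FPKM, and Psmb8 was listed at 0 and at 0.0597 FPKM, so neither was measured. The FPKM of Psmb7 was 15.2 times that of Psmb10 in control cells and 29.4 times with H19.

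In the base, the ATPases and the scaffold subunits differed in opposite directions. All 6 ATPases, which form the ring that unfolds substrates, were higher, with a median of 0.38. Psmc5 went from 77.5 to 113 FPKM (0.54), Psmc4 from 67.8 to 94.3 FPKM (0.47) and Psmc2 from 44.8 to 62.0 FPKM (0.46). Psmc6 was at 80.6 and 99.4 FPKM (0.30), Psmc1 at 61.4 and 74.0 FPKM (0.27) and Psmc3 at 72.0 and 84.9 FPKM (0.23). Thus 3 of 6 passed 0.32, and the lowest of the 6 was still near the core median.

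The 3 base subunits that are not ATPases had a median of -0.14. Psmd1, the larger scaffold of the base, was at 55.4 and 29.7 FPKM (-0.88), 53.5% of the control level. Psmd2, the other scaffold and a docking site for ubiquitin shuttle proteins, was at 87.0 and 78.8 FPKM (-0.14), and the ubiquitin receptor Psmd4 at 109 and 123 FPKM (0.17). Psmd1 (ENSMUSG00000026229, plus strand of chromosome 1, 86064387 to 86139151, GRCm38) was the second lowest of the 43, and 2.42% of all measured genes had a lower difference. Its exons share 301 of 7265 bases with the gene model Gm21972 on the same strand, at 0.303 and 0.337 FPKM, and 252 bases with Htr2b on the other strand, at 0.0689 and 0 FPKM. Both partners were below 1 FPKM in each library. Psmd1 sets the spread of the class: the base median was 0.27, its mean 0.16.

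Every measured lid subunit was higher in the H19 library. The lid has a deubiquitinating pair and a set of scaffold subunits. Of the pair, the enzyme Psmd14 was at 89.6 and 104 FPKM (0.21) and its inactive partner Psmd7 at 76.1 and 107 FPKM (0.49), the largest lid difference. Of the scaffolds, Psmd6 was at 52.3 and 70.3 FPKM (0.42), Psmd12 at 59.9 and 78.6 FPKM (0.39) and Psmd11 at 45.9 and 57.5 FPKM (0.32). These were the 3 least abundant lid transcripts in the control library. Psmd13 was at 74.2 and 89.5 FPKM (0.27) and Psmd3 at 73.3 and 82.0 FPKM (0.16). Psmd8 had the smallest difference, at 174 and 184 FPKM (0.08). The 8 differences ran from 0.08 to 0.49 with a median of 0.29, and 3 passed 0.32. Shfm1, a small lid protein whose symbol lies outside the rule, was at 55.7 and 57.5 FPKM (0.05).

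The activators had the lowest median of all classes (-0.48) and held the lowest single value. Psme1 (ENSMUSG00000022216, plus strand of chromosome 14, 55578123 to 55581529) was at 28.7 and 12.99 FPKM (-1.09), 45.2% of the control level. Psme2 (ENSMUSG00000079197, minus strand, 55587441 to 55591113), which builds a mixed ring with Psme1 in the cytosol, was at 55.3 and 33.9 FPKM (-0.69). The genes point towards each other, and 5911 bases lie between their ends. Exons of Psme1 share 14 of 2209 bases with Emc9 on the other strand, at 6.68 and 5.73 FPKM. Psme1 was the lowest of the 43 and Psme2 the third lowest, and 1.15% and 4.30% of all measured genes had lower differences. The ratio of Psme1 to Psme2 was 0.520 in control cells and 0.383 with H19, so the pair did not differ by the same factor.

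The nuclear activators differed less. Psme3, which forms a ring of its own in the nucleus, was at 59.4 and 66.9 FPKM (0.17). Psme4, a large single-chain activator known from DNA repair and sperm development, was at 39.8 and 32.8 FPKM (-0.27). Psme2b, the remaining activator gene by symbol, was at 0.187 and 0.0944 FPKM and was not measured. In the control library Psme2 and Psme3 were almost level, at a ratio of 0.930, which was 0.507 with H19. Psme1 was the only activator at least 2-fold lower; 1.57% of all measured genes were. Psmf1, which can block the core by binding where activators bind, was at 14.2 and 23.4 FPKM (0.68), above every core, base and lid subunit in its difference.

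**Figure D2:**
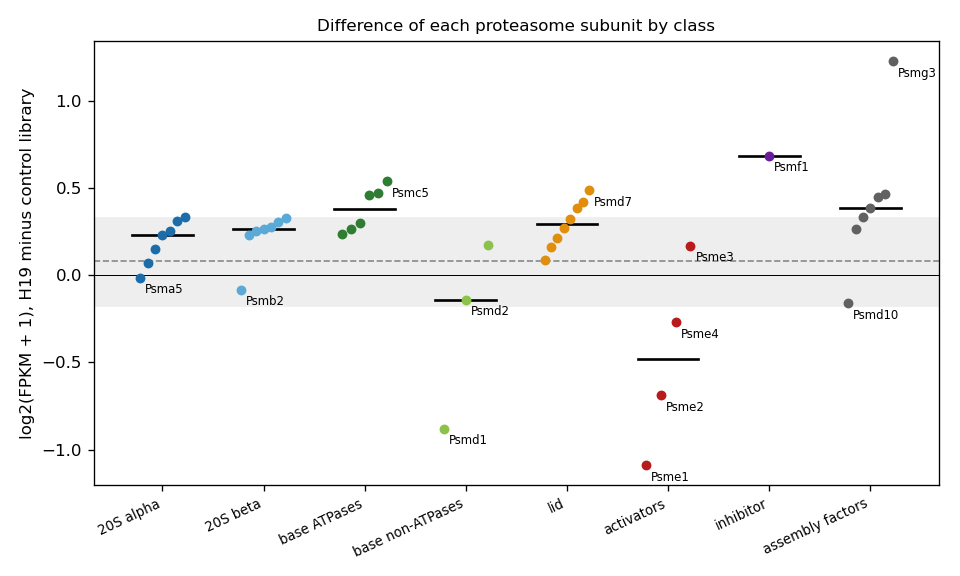
Log2(FPKM + 1) difference, H19 minus control library (y axis), of each measured subunit by class (x axis); short black lines are class medians, the dashed line is the median of all measured genes (0.08) and the grey band their middle 50%. Psme1 (-1.09), Psmd1 (-0.88), Psme2 (-0.69) and Psme4 (-0.27) lie below the band, and Psmg3 (1.22) and Psmf1 (0.68) lie above the other points.

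Assembly factors were higher with 1 exception. The chaperones of the alpha ring work in pairs, Psmg1 with Psmg2 and Psmg3 with Psmg4. Psmg1 was at 16.6 and 23.3 FPKM (0.46) and Psmg2 at 31.2 and 42.9 FPKM (0.45), a nearly equal difference within the pair. Psmg3 was at 32.6 and 77.5 FPKM (1.22) and Psmg4 at 31.0 and 39.3 FPKM (0.34), so the partners were level in the control but not in the H19 library. Psmg3 (ENSMUSG00000029551, minus strand of chromosome 5, 139823592 to 139826885) was the highest of the 43 and the only one at least 2-fold higher, beside 1.14% of all measured genes. Its exons share 280 of 2893 bases with the gene model Gm26938 on the same strand. No FPKM value was found under the gene identifier of Gm26938.

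Of the chaperones of the base, Psmd9 was at 6.60 and 8.93 FPKM (0.38), the lowest level of any measured subunit. Psmd9 shares 1849 exonic bases with the noncoding gene Gm26745 on the other strand, and without known use of strand their reads cannot be told apart. Psmd5 was at 27.2 and 32.9 FPKM (0.26). Psmd10, also called gankyrin and best known as a liver oncoprotein, was at 43.6 and 38.9 FPKM (-0.16). Psmd10 assembles with the ATPases Psmc4 and Psmc5, which had the largest base differences in the other direction. The median of the 7 assembly factors was 0.38, and 5 of 7 passed 0.32.

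**Figure D3:**
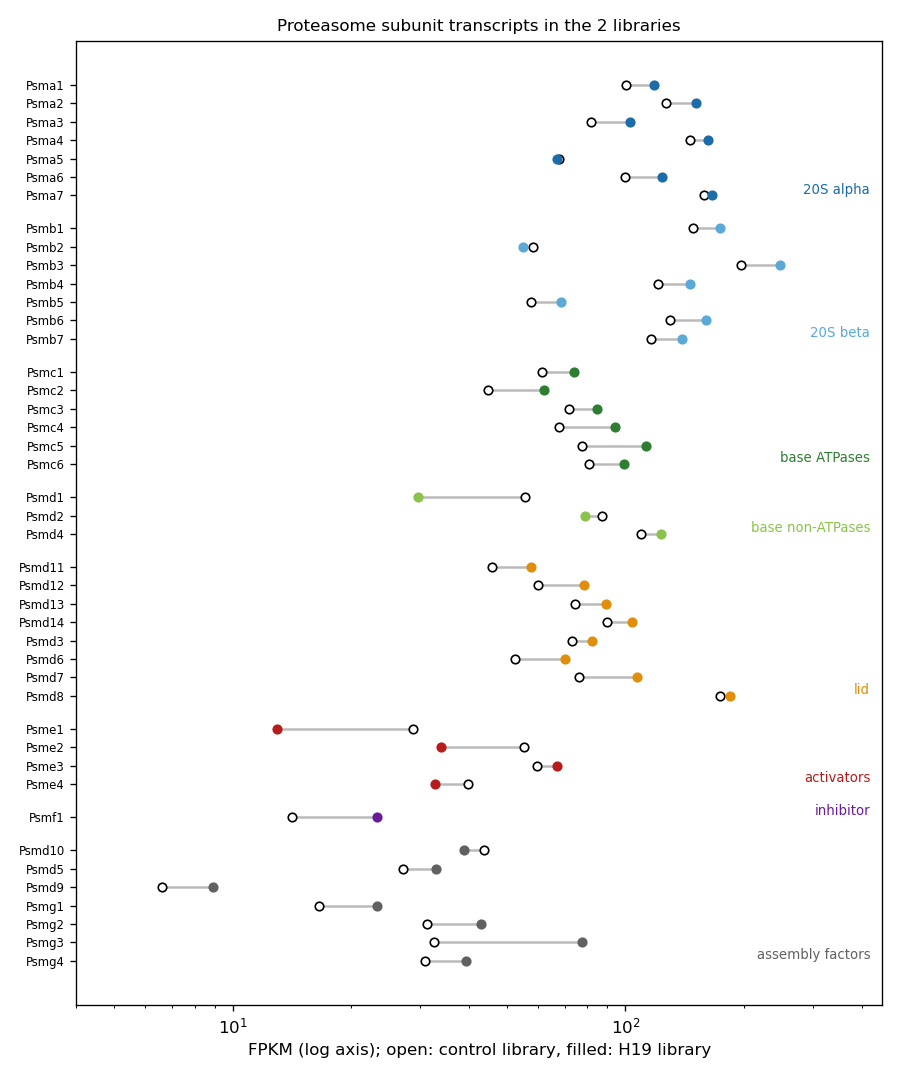
FPKM of the 43 measured subunits (x axis, log scale) by gene (y axis) and class; open circles are the control library and filled circles the H19 library, joined by a line. Filled circles lie to the right of open ones for all base ATPases and lid subunits and to the left for Psme1, Psme2, Psme4, Psmd1, Psmd2, Psmd10, Psmb2 and Psma5.

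Core, base and lid medians lay close together. The lid median exceeded the core median by 0.04 on the log2 scale, and 5 of the 8 lid subunits lay within the range of the core. The base median exceeded the core median by 0.02. The activator median was -0.48, a difference of -0.73 from the core and -0.77 from the lid, and 3 of the 4 measured activators lay below every core and every lid subunit. With Psme1 and Psme2 left out, an alternative chosen after the data were seen, the activator median was -0.05 and its difference from the core -0.30. The summed FPKM of the core was 1609 and 1882 (log2 ratio 0.23), that of the lid 645 and 773 (0.26), and that of the activators 183 and 147 (-0.32). The direction of the class medians was the same when the median of all genes was set to 0, when FPKM was rescaled to a common total and when upper quartiles were made equal. The last scaling moved the median of all genes by -0.10, to -0.02, and gave medians of 0.14 for the core, 0.18 for the lid and -0.59 for the activators. Psma7 turned lower under the first and the last of these scalings and Psmd8 under the last.

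The order of levels was largely shared by both libraries. Per length, core transcripts were the most abundant class, with medians of 118 and 143 FPKM. The lid median was 73.7 and 85.7 FPKM and the base median 72.0 and 84.9 FPKM. Lid to core ratios of these medians were 0.623 and 0.600, and base to core ratios 0.608 and 0.594. The mean of Psme1 and Psme2 was 0.355 of the core median in control cells and 0.164 with H19. The 6 ATPases were the most even class in level, the highest at 1.80 times the lowest in control cells and 1.82 times with H19. Within the activators that span widened from 2.07 to 5.15 times. Across the 43 genes, which are not independent replicates and share 2 libraries, Pearson's r of log2 FPKM between the libraries was 0.925 and Spearman's rho 0.955. The difference had little relation to mean log2 FPKM (r = 0.12) or exonic length (r = -0.10).

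Genes that work with the proteasome were described from fixed lists. Of 16 proteasome-associated genes 12 were higher (75%) and 4 lower, where 58.9% of all measured genes were higher. Their median was 0.09, close to the 0.08 of all measured genes. Akirin2, which brings proteasomes into the nucleus, was at 31.6 and 55.8 FPKM (0.80), the only one of the list past 1.5-fold. The 4 lower genes were Ubqln2, at 7.73 and 5.12 FPKM (-0.51), Zfand5 (-0.13), Rad23b (-0.10) and Txnl1 (-0.02). The deubiquitinase Usp14 was at 69.8 and 91.4 FPKM (0.38), its counterpart Uchl5 at 29.2 and 32.6 FPKM (0.15), the ubiquitin receptor Adrm1 at 54.6 and 57.5 FPKM (0.07) and the core maturation factor Pomp at 29.6 and 36.2 FPKM (0.28). Psmd1, which anchors Adrm1 on the base, was thus lower while Adrm1 was nearly level.

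Of the ubiquitin genes described here, Ubb, a polyubiquitin gene, was at 444 and 340 FPKM (-0.38), and Rps27a, which encodes ubiquitin fused to a ribosomal protein, was at 675 and 1031 FPKM (0.61). These differed in opposite directions. Of the activating enzymes, Uba1 was slightly lower (199.5 and 194 FPKM, -0.04) and Uba6 slightly higher (18.9 and 21.6 FPKM, 0.18). Of the 6 genes of p97 and its cofactors, which extract ubiquitinated proteins, 4 were higher (66.7%), with a median of 0.20. That share is near the 58.9% of all measured genes that were higher. Vcp, which encodes p97 itself, was at 98.9 and 87.3 FPKM (-0.18).

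Of 10 measured regulators of proteasome genes 9 were higher (90%), where 58.9% of all measured genes were, with a median of 0.24. Nfe2l1 was at 131 and 139 FPKM (0.09) and Nfe2l2 at 84.9 and 86.8 FPKM (0.03), both near the median of all genes. Ddi2, the protease that activates the Nfe2l1 protein, was at 11.6 and 15.9 FPKM (0.42). Mafk, a small Maf partner of both factors, was at 36.4 and 73.9 FPKM (1.00), at least 2-fold higher. The other small Maf genes of the list did not share this: Mafg was at 27.2 and 32.9 FPKM (0.26) and Maff at 34.7 and 32.7 FPKM (-0.08).

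**Figure D4:**
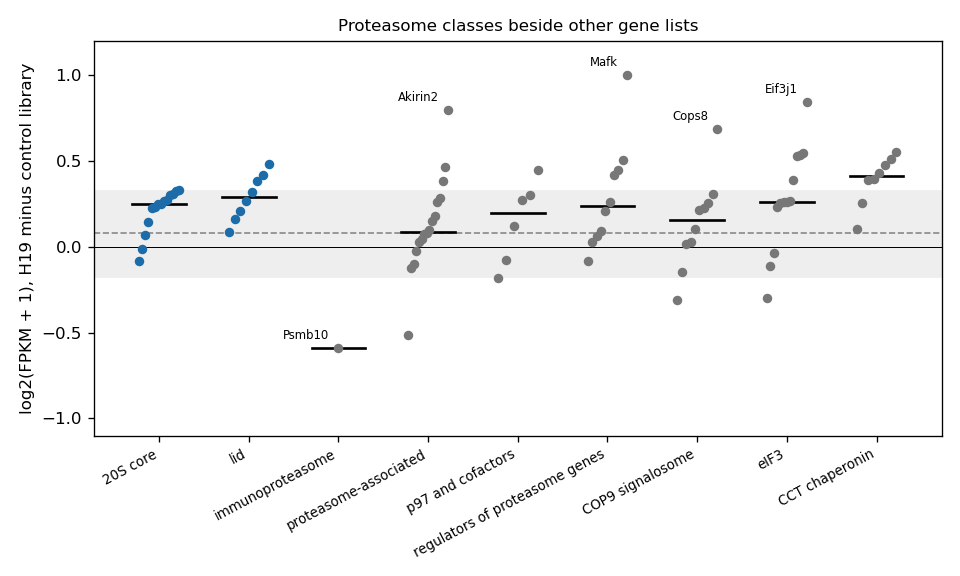
Log2(FPKM + 1) difference, H19 minus control library (y axis), of core and lid subunits (blue) and of the measured genes of 7 other lists (grey); short black lines are medians, the dashed line is the median of all measured genes and the grey band their middle 50%. The medians are 0.25 for the core, 0.29 for the lid, 0.41 for the CCT chaperonin, 0.26 for eIF3 and 0.16 for the COP9 signalosome.

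Other large complexes had medians on the same side. For the counts below, 58.9% of all measured genes were higher, and 63.2% of those with a mean of at least 20 FPKM. The COP9 signalosome and eIF3, which share the lid's architecture, had medians of 0.16 (8 of 10 higher) and 0.26 (10 of 13 higher), and the CCT chaperonin, a ring complex that folds proteins, had 0.41 (8 of 8 higher). Of these complexes, only Cops8 (30.6 and 49.9 FPKM, 0.69) and Eif3j1 (18.7 and 34.5 FPKM, 0.85) passed 1.5-fold. The medians of the core, base and lid lay between those of the COP9 signalosome and the CCT chaperonin, and with 1 library per group no difference between complexes could be tested.

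The authors' deposited table of differences held 561 genes, where 21145 genes have FPKM values, and 2 of the 45 proteasome subunits. Whether 2 exceeds the share over all genes was not tested. In the authors' deposited table Psme1 has a log2 ratio of -1.15 with q = 0.00299, and Psmg3 has 1.249 with q = 0.000209. These are ratios without a pseudocount, and the authors' test compares the reads of 2 libraries, not the conditions.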

How the data were processed

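RNA of AML12 cells was sequenced in 2 libraries, 1 per virus. The labels name polyadenylated RNA, and the design text speaks of removal of ribosomal RNA. Per the submitters' processing notes, CASAVA 1.4 and TopHat2 were used with mm9; no source used here names the quantifier, strand setting or test. Expression was deposited as FPKM, per the file headers. The authors' deposited table adds log2 ratios with p-values and q-values. The per-library tables differed from the joint table in 0 genes. Deposited loci of all 45 subunits overlap their GRCm38 position in GENCODE M21, so coordinates are GRCm38 although mm9 is named. Some deposited loci were longer than the gene, and others were not. For Psmg3 the lengths were 35373 against 3294 bases, for Psmd1 236989 against 74765, and for Psme1 7180 against 3407. For Psme2 both were 3673 bases. Whether a longer locus bears on the FPKM was not tested.

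Each library's log2(FPKM + 1) was taken, with a pseudocount of 1, and the control was subtracted. A mean FPKM of at least 1 made a gene measured, and differences of at least 0.32, 0.58 (1.5-fold) and 1 (2-fold) on the log2 scale were counted. With 1 library per group there is no test, and depth is unknown: low FPKM times exonic length did not fall on whole multiples of a step (25.3% and 26.0% of genes within 0.1). Members and lists were chosen with earlier results of these data known. Named subunits are the 3 highest and 3 lowest per class, all of classes of up to 7, protease subunits and those past 0.32; the remaining lid and core subunits are given too. Other genes come from fixed lists: those past 1.5-fold, and others chosen after their values were seen. The steps were tested on simulated data. Alternatives were pseudocounts, filters, scalings and memberships. Psmb11 was not analysed here, and some genes of the ubiquitin list are not reported here. Python 3.11.15, numpy 2.4.6, pandas 2.3.3 and matplotlib 3.10.9 were used.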

Additional observations from a re-analysis of the deposited data

How the results depend on the processing

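No paired analysis was possible because there is 1 library per group. Of 152 recomputed values, 131 stayed within the tolerance (0.1 on the log2 scale, 1.5 times for a count), 20 moved and 1 reversed; the cause of each was not tested unless its construction shows it. With equal upper quartiles, which lower every difference, the median was 0.15 for all subunits, 0.14 for the core, 0.15 for the base, 0.18 for the lid, -0.59 for the activators and 0.28 for the assembly factors, the log2 ratio of summed FPKM was 0.11 for the core, 0.15 for the lid and -0.44 for the activators, and 8 subunits were higher by at least 0.32 instead of 14. That count was 9 with the median of all genes set to 0 and 8 without the assembly factors and Psmf1. With no filter, which adds Psme2b, the activator median was -0.27, with differences of -0.52 from the core and -0.56 from the lid. The lid minus core difference of 0.04 reversed to -0.013 when every Psmd gene was counted as lid, which also gave a log2 ratio of summed lid FPKM of 0.16. The base by its mean was 0.16, and by its ATPases alone, an alternative chosen after seeing the data, 0.38. Leaving out Psme1 and Psme2, also chosen after seeing the data, gave an activator median of -0.052 and a difference from the core of -0.30. Pseudocounts of 0.1 and 0.01 and filters of 5 and 20 FPKM moved none of these values past the tolerance. Sums use no pseudocount and were not recomputed for it. Without replicates and read totals, differences as small as those of single core or lid subunits cannot be set against an error.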
